A study of Rattus norvegicus with 9 samples.

Results

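A set of 10 genes of the hypoxia response was followed through 9 RNA-Seq libraries of rat L4-6 dorsal root ganglia (DRGs). They were picked by symbol, as 10 of the 20413 genes in the expression table: Hif1a, Epas1, Vegfa, Adm, Egln3, Bnip3, Slc2a1, Ldha, Pfkfb3 and Pfkfb4. The rule uses the symbols alone. Each symbol matched 1 row, and all 10 genes were among the 17187 genes that passed the filter on low values, a mean of at least 0.1 FPKM over the 9 libraries. FPKM scales the fragments of a gene to its transcript length and to the library's mapped fragments, so it can be compared between genes.

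The study asked how a rat model of complex regional pain syndrome type I, and its treatment with electroacupuncture (EA), alter gene expression in the ganglia that serve the hind limb. The animals were young adult male Sprague Dawley rats, with 3 libraries in each of 3 groups. In the CPIP (chronic post-ischemic pain) group a tight rubber O-ring had stopped the blood flow to 1 hind paw before it was cut off again. Rats of the Sham group, labelled Con, were anesthetized too, but wore an opened ring, so their paws were not ischemic. In the CPIP+EA group, CPIP rats were also stimulated once a day for 10 days through needles at ST36 and BL60 of both hind limbs. DRGs of the side of the O-ring were taken on day 10 from all groups after a saline perfusion. The ischemia was thus applied to the paw, not to the ganglion, and it had ended well before the ganglia were collected. The labels name no needled but unstimulated group, so needling and current cannot be told apart.

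Hypoxia-inducible factor (HIF) is a transcription factor made of an oxygen-sensitive alpha subunit and a stable beta subunit. Hif1a encodes HIF-1 alpha and Epas1 encodes HIF-2 alpha. When oxygen is plentiful, prolyl hydroxylases such as the product of Egln3 mark the alpha subunits, and the von Hippel-Lindau protein sends them to degradation, so the activity of HIF is set mostly at the protein level and need not follow the amount of Hif1a mRNA. In low oxygen the complex binds a short core, ACGTG or GCGTG, near its target genes. Textbook targets raise the supply of oxygen (the angiogenic factor Vegfa, the vasodilator peptide Adm), the import of glucose (the transporter Slc2a1), glycolysis (Ldha, Pfkfb3, Pfkfb4) and the removal of mitochondria (Bnip3), and include Egln3 itself. In a DRG, neurons, satellite glia, Schwann cells and vessels are measured together, and in such bulk tissue fewer cells of a type and less RNA per cell cannot be told apart.

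The core was searched on both strands in RefSeq promoter windows of the rat genome build GRCr8, each running from 250 bases before to 50 bases after a transcription start. All 10 genes had a window. The windows of Hif1a, Slc2a1, Ldha, Pfkfb3 and Bnip3 held the core, which is 5 of the 11 windows of the 10 genes (Vegfa had 2), while 41.6% of all 33469 windows held it and 19.3% held the form ACGTG. The 5 windows are printed 5′ to 3′ on the strand of the gene to show the bases around the start of these genes. Capitals mark the core, either as ACGTG or GCGTG or as it reads from the other strand (CACGT for the first form, CACGC for the second), joined where matches overlap.
Hif1a (chr6:98359648-98359947, plus strand): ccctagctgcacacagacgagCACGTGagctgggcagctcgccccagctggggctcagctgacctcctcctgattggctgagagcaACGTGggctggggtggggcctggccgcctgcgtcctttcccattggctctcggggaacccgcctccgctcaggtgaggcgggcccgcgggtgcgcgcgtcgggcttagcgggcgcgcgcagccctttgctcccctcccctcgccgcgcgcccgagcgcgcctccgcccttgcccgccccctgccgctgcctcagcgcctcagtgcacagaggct
Slc2a1 (chr5:138002272-138002571, plus strand): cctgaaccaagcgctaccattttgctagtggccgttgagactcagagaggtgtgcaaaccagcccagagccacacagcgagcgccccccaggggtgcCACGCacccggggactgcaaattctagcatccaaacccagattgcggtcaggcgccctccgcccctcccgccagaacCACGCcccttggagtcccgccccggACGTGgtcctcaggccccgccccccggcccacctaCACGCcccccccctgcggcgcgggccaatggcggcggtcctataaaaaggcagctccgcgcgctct
Ldha (chr1:106507842-106508141, plus strand): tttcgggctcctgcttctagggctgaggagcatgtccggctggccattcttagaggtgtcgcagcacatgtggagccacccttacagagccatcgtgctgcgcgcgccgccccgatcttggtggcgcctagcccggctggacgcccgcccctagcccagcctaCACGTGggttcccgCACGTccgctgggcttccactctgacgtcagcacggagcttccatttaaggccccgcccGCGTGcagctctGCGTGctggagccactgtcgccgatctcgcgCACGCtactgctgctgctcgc
Pfkfb3 (chr17:71944683-71944982, plus strand): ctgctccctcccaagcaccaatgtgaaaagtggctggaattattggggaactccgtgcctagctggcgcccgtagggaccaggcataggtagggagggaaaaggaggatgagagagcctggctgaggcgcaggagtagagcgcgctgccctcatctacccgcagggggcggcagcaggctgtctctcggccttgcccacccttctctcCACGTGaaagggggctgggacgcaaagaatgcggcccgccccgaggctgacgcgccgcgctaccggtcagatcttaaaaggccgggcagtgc
Bnip3 (chr1:203154913-203155212, minus strand): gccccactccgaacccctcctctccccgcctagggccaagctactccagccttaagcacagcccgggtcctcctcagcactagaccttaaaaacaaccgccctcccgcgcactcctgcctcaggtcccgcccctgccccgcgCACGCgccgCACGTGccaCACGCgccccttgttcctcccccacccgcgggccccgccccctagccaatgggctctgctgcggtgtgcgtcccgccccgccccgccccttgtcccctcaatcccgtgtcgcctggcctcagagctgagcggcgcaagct
CACGTG holds the first form on both strands. Counted from the start, its first base lay at -229 in Hif1a, -87 in Ldha, -42 in Pfkfb3 and -99 in Bnip3. In Slc2a1 the single ACGTG lay at -51, with 3 further stretches of the GCGTG form. The windows of Epas1, Vegfa, Adm, Egln3 and Pfkfb4 held neither form, which says only that these letters are not in these 300 bases. A match is a description of the sequence and not a measured binding site.

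The 9 libraries were similar in size of signal, with FPKM sums between 445647 and 482940 and 18279 to 18456 genes above 0. All 11 sensory neuron markers, among them Tubb3 and Calca, were present. Their summed level lay between 8388 FPKM in CPIP+EA replicate 3 and 11012 FPKM in Sham replicate 1. Markers of injured sensory neurons (Atf3, Sprr1a, Gal, Npy, Jun, Sox11 and Gap43) summed to 170 to 177 FPKM in the Sham group, 775 to 897 FPKM in the CPIP group and 844 to 948 FPKM in the CPIP+EA group. CPIP+EA replicate 3 had the highest sum of the neutrophil and marrow markers, 604 FPKM against 31.8 to 242 FPKM in the other libraries, and of the erythroid markers, 3618 FPKM. CPIP replicate 2 had the highest sum of the skeletal muscle markers, 103 FPKM against 7.16 to 33.2 FPKM in the other libraries. Myelinating Schwann cell markers ranged from 4804 to 11994 FPKM without separating the groups. Their part in the results was not tested.

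Transcript levels differed widely between the 10 genes. Over the 9 libraries, Ldha was the most abundant with a mean of 292 FPKM. It was followed by Bnip3 with 202 FPKM and Epas1 with 45.6 FPKM. The next 4 genes, Slc2a1 (30.3 FPKM), Pfkfb3 (26.2 FPKM), Vegfa (25.2 FPKM) and Hif1a (24.7 FPKM), overlapped each other in this order from neighbor to neighbor. Below them came Pfkfb4 with 7.83 FPKM, Egln3 with 3.53 FPKM and Adm with 2.00 FPKM, and the library ranges of these lower genes did not overlap.

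**Figure D1:**
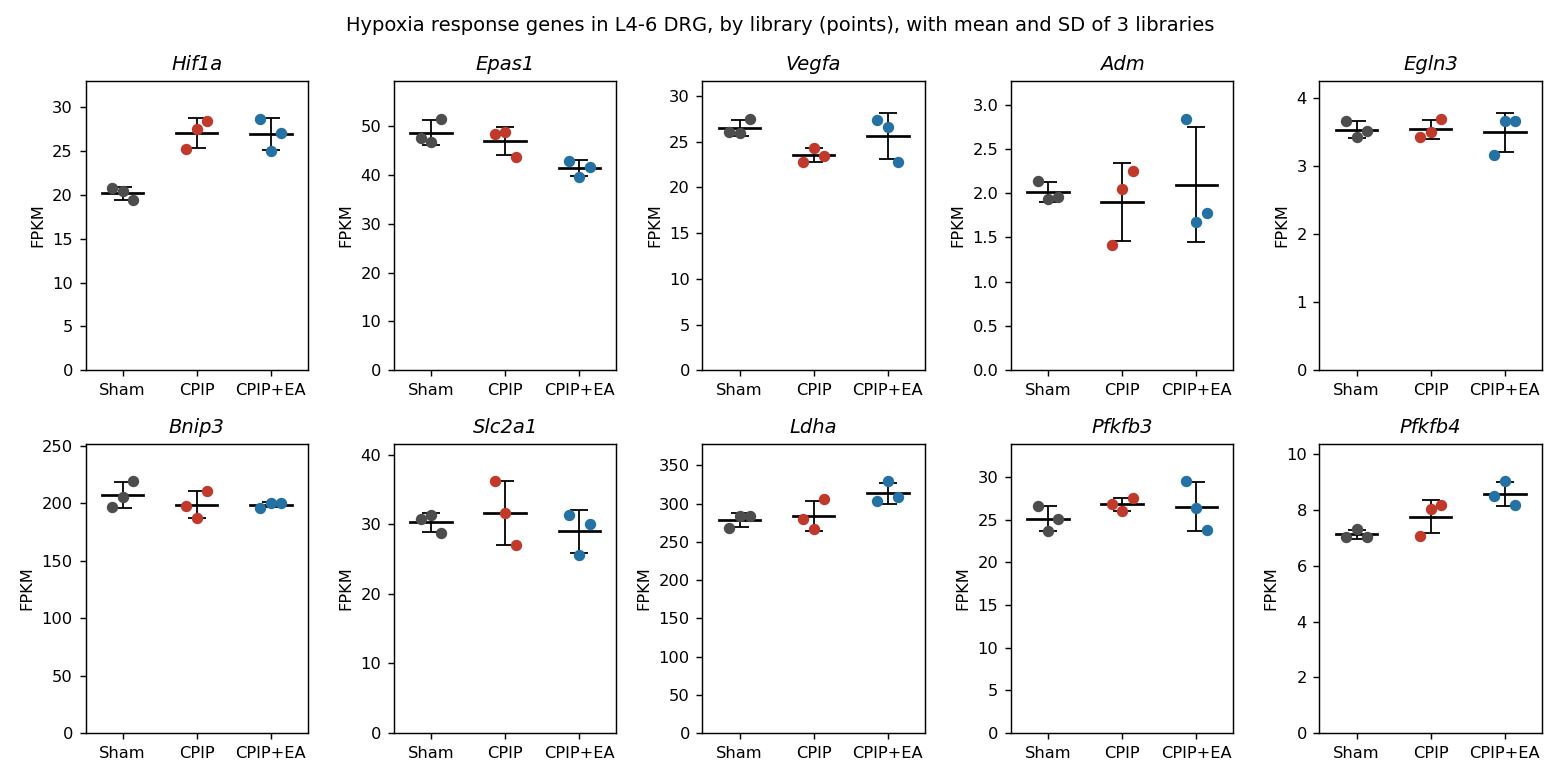
Expression of the 10 genes in FPKM (vertical axes, from 0) in each library of the Sham, CPIP and CPIP+EA groups, with points for libraries and black bars for the mean and SD of 3 libraries. Hif1a is the gene whose 3 Sham libraries, 19.36 to 20.73 FPKM, all lie below the CPIP and CPIP+EA libraries, 25.03 to 28.67 FPKM.

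None of the 10 genes was a differentially expressed gene (DEG) in any comparison. With the study's threshold for a DEG (adjusted p below 0.01, change of 1.5-fold or more), limma called 0 of 10 in CPIP vs. Sham, where 0.355% of all genes tested were called. It called 0 of 10 in CPIP+EA vs. CPIP (0% of all genes) and 0 of 10 in CPIP+EA vs. Sham (0.483% of all genes). At an unadjusted p under 0.05 the counts were 1, 1 and 4 of 10, beside 8.66%, 4.29% and 12.2% of all genes. At an adjusted p under 0.05 with no limit on the fold change, limma called 1, 0 and 1 of 10, and the gene was Hif1a both times (0.71%, 0% and 1.31% of all genes). The libraries of the compared groups did not overlap for 2, 2 and 4 of 10 genes, against 15.9%, 8.23% and 16.2% of all genes.

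The median log2 fold change of the 10 genes was 0.014, -0.0021 and 0.0018 in the 3 comparisons, and that of all genes tested was -0.0064, 0.012 and 0.0014. These fold changes compare log2(FPKM + 0.5), and the added 0.5 makes those of low genes too small. The 95% intervals of all 10 genes in all 3 comparisons stayed inside 1.5-fold in either direction on this scale. For Adm, the lowest of them, this does not exclude a 1.5-fold change in FPKM itself. The comparisons with CPIP and with Sham share libraries and are given side by side.

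**Figure D2:**
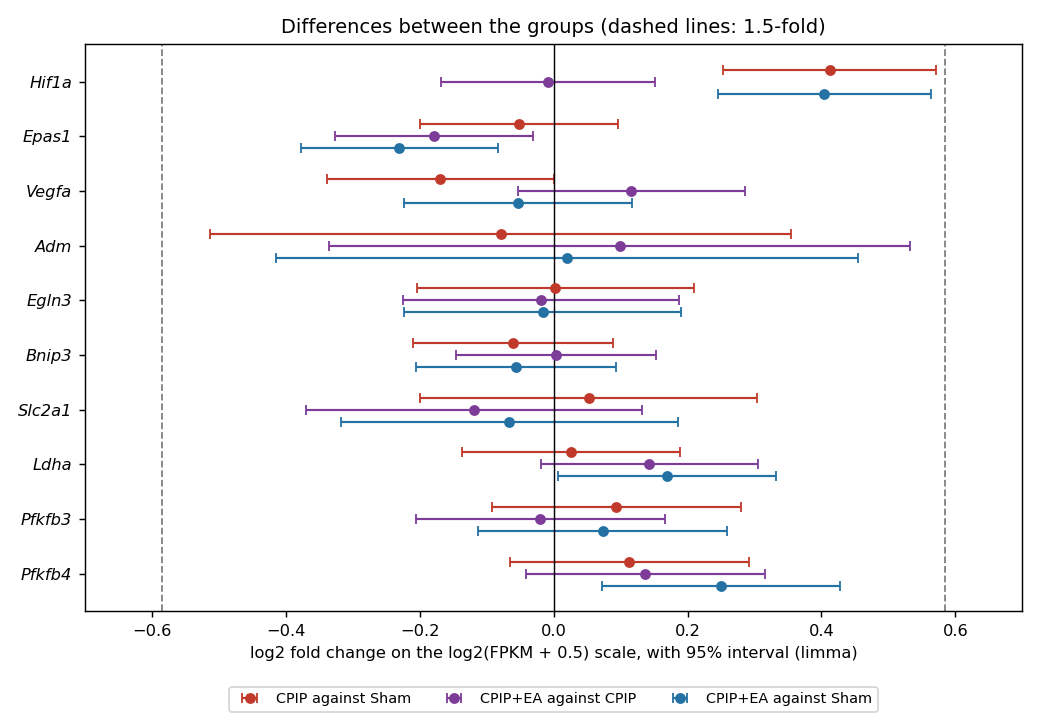
Log2 fold change (horizontal axis, log2(FPKM + 0.5) scale) of each gene in the 3 comparisons, with 95% intervals from limma on 3 libraries a group and dashed lines at 1.5-fold. The intervals of Hif1a against Sham, 0.25 to 0.57 for CPIP and 0.24 to 0.56 for CPIP+EA, lie above 0, and no interval crosses a dashed line.

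Of the 2 alpha subunits, Hif1a was higher in the rats with CPIP. Hif1a (gene ID 29560) measured 20.73, 20.46 and 19.36 FPKM in the Sham libraries, 25.22, 27.46 and 28.46 FPKM in the CPIP libraries and 28.67, 25.03 and 26.99 FPKM in the CPIP+EA libraries. Every library of a rat with CPIP, stimulated or not, was above every Sham library, and the CPIP and CPIP+EA libraries overlapped. The means were 20.2 ± 0.726, 27.0 ± 1.66 and 26.9 ± 1.82 FPKM (SD, n = 3 each), a 1.34-fold ratio of CPIP to Sham and a 1.33-fold ratio of CPIP+EA to Sham. The log2 fold change was 0.41 in CPIP vs. Sham (SE 0.070, limma adjusted p = 0.0376) and 0.40 in CPIP+EA vs. Sham (SE 0.070, limma adjusted p = 0.0277). Between CPIP+EA and CPIP it was -0.0082, with a 95% interval from -0.17 to 0.15 (limma adjusted p = 0.996).

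The call of Hif1a at an adjusted p of 0.05 depended on the settings, although its direction against Sham did not. The adjusted p for CPIP vs. Sham ranged from 0.0359 to 0.172 over 21 alternative fits and was under 0.05 in 11 of them, and it was above 0.05 when any of the 3 Sham or 3 CPIP libraries was left out. For CPIP+EA vs. Sham it ranged from 0.0273 to 0.110, also with 11 of 21 under 0.05, and was lost without Sham replicate 1, 2 or 3, CPIP replicate 2, or CPIP+EA replicate 1 (0.0789) or 3 (0.0534). The log2 fold change stayed between 0.38 and 0.46 in the first comparison and between 0.36 and 0.45 in the second. The sums of the injured neuron markers and of the satellite glia markers (3623 to 3748 FPKM in Sham, 3791 to 4130 FPKM in CPIP and 4030 to 4214 FPKM in CPIP+EA) separated the same libraries. Kcnj10, 1 of the 5 satellite glia markers, did not follow that sum. It was at 32.89 to 36.22 FPKM in Sham, 28.58 to 29.85 FPKM in CPIP and 27.58 to 39.33 FPKM in CPIP+EA. The part of these markers in the difference of Hif1a was not tested. A long noncoding RNA gene, LOC120103553, overlaps Hif1a in RefSeq and was not analysed here, and the library protocol does not mark strand.

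Epas1 did not follow Hif1a and had its lowest levels in the CPIP+EA group. Epas1 (gene ID 29452) measured 47.61, 46.76 and 51.52 FPKM in the Sham libraries, 48.31, 48.83 and 43.62 FPKM in the CPIP libraries and 42.78, 39.63 and 41.71 FPKM in the CPIP+EA libraries. All 3 CPIP+EA libraries lay below the 6 others, whereas Sham and CPIP overlapped. The means were 48.6 ± 2.54, 46.9 ± 2.87 and 41.4 ± 1.60 FPKM (SD, n = 3 each). By limma, the log2 fold change was -0.18 in CPIP+EA vs. CPIP (SE 0.065, unadjusted p = 0.0229 and adjusted p = 0.996 by limma) and -0.23 in CPIP+EA vs. Sham (SE 0.065, limma adjusted p = 0.177). CPIP vs. Sham gave -0.052, with a 95% interval from -0.20 to 0.096. Neither difference of the CPIP+EA group passed the correction for all genes in any of the 21 alternative fits. HIF-2 alpha is known from vascular endothelium. The sum of the 7 endothelial markers overlapped between the groups, at 53.7 to 79.8 FPKM in Sham, 59.6 to 73.1 FPKM in CPIP and 56.9 to 82.3 FPKM in CPIP+EA. Single markers differed. The receptor Kdr was lower in the CPIP+EA libraries (2.71 to 3.05 FPKM) than in the other libraries (3.16 to 4.20 FPKM). It did not pass the test (limma adjusted p = 0.996 against CPIP and 0.515 against Sham). The receptor Tek had means of 4.93, 5.45 and 5.56 FPKM in Sham, CPIP and CPIP+EA. The part of these markers in the level of Epas1 was not tested.

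**Figure D3:**
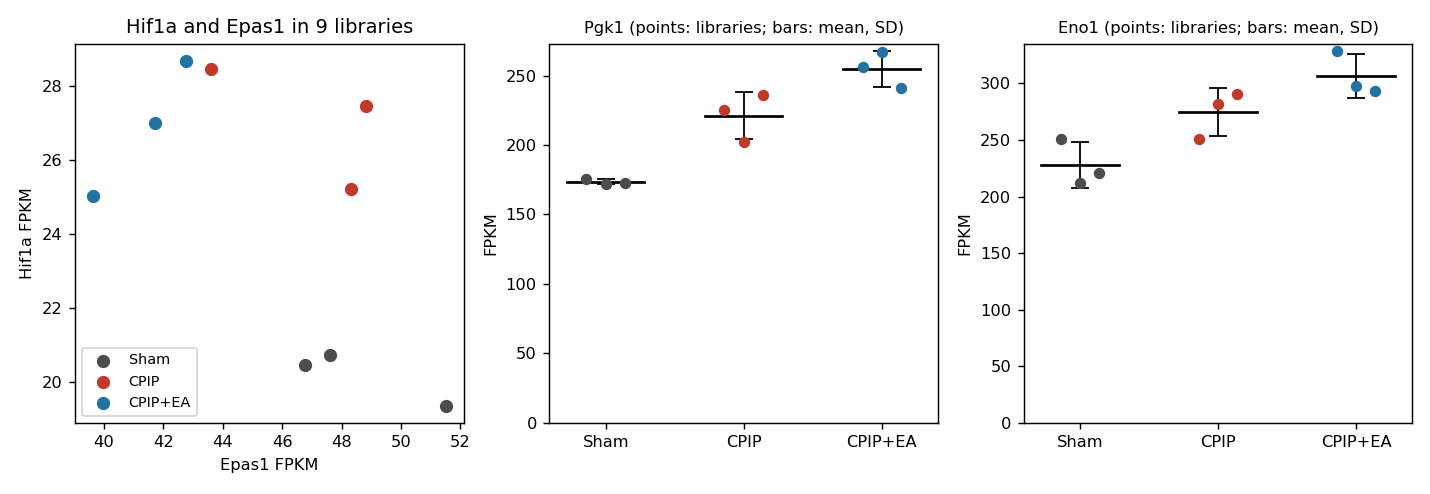
Left, Hif1a against Epas1 in FPKM for the 9 libraries (axes do not start at 0): the 3 Sham libraries lie low on the Hif1a axis, and the 3 CPIP+EA libraries lie left, at 39.63 to 42.78 FPKM of Epas1. Middle and right, Pgk1 and Eno1 in FPKM by group (axes from 0), with points for libraries and black bars for the mean and SD of 3 libraries.

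The oxygen sensor Egln3, a prolyl hydroxylase that is itself a strongly HIF-responsive gene, hardly differed between the groups. Egln3 (gene ID 54702) measured 3.67, 3.43 and 3.52 FPKM in Sham, 3.43, 3.51 and 3.70 FPKM in CPIP and 3.17, 3.66 and 3.67 FPKM in CPIP+EA. All groups overlapped. Log2 fold changes were 0.0022, -0.019 and -0.016 in CPIP vs. Sham, CPIP+EA vs. CPIP and CPIP+EA vs. Sham (SE 0.091 each), and the interval of the first ran from -0.20 to 0.21.

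Of the secreted factors, Vegfa, which drives vessel growth and permeability, was lower in the CPIP libraries than in the Sham libraries without passing the test. Vegfa (gene ID 83785) measured 26.06, 25.95 and 27.52 FPKM in Sham, 22.78, 24.35 and 23.45 FPKM in CPIP and 27.42, 26.64 and 22.77 FPKM in CPIP+EA. The CPIP libraries lay below all Sham libraries, and CPIP+EA replicate 3, with 22.77 FPKM, lay with the CPIP libraries while the other two lay with Sham. The means were 26.5 ± 0.876, 23.5 ± 0.788 and 25.6 ± 2.49 FPKM (SD, n = 3 each). The log2 fold change was -0.17 in CPIP vs. Sham (SE 0.075, limma adjusted p = 0.583), 0.12 in CPIP+EA vs. CPIP (limma adjusted p = 0.996) and -0.053 in CPIP+EA vs. Sham. Without CPIP+EA replicate 3, CPIP+EA vs. CPIP gave 0.20 (limma adjusted p = 0.618).

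Adm encodes adrenomedullin, a vasodilator peptide that is also made by sensory neurons. Adm (gene ID 25026) measured 2.14, 1.93 and 1.96 FPKM in Sham, 1.41, 2.05 and 2.25 FPKM in CPIP and 2.84, 1.67 and 1.77 FPKM in CPIP+EA. The groups overlapped, and the highest and the lowest library belonged to CPIP+EA and CPIP. With an SE of 0.19 the log2 fold changes of -0.079, 0.099 and 0.020 were the least certain of the 10 genes. The interval of CPIP+EA vs. CPIP ran from -0.33 to 0.53.

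Slc2a1 encodes GLUT1, the main glucose transporter of the blood-nerve and blood-brain barriers. Slc2a1 (gene ID 24778) measured 30.74, 31.36 and 28.69 FPKM in Sham, 36.13, 31.60 and 27.06 FPKM in CPIP and 31.37, 25.51 and 30.06 FPKM in CPIP+EA. The CPIP libraries held both the highest value of all and one of the lowest. Log2 fold changes were 0.053, -0.12 and -0.066 (SE 0.11 each), and the groups overlapped in all 3 comparisons.

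Among the glycolytic genes, Ldha and Pfkfb4 were highest in the CPIP+EA libraries. Ldha (gene ID 24533), the lactate dehydrogenase subunit that favors lactate, measured 268.76, 283.67 and 284.20 FPKM in Sham, 280.44, 266.61 and 305.79 FPKM in CPIP and 303.10, 329.10 and 308.89 FPKM in CPIP+EA. The CPIP+EA libraries lay above all Sham libraries but overlapped the CPIP libraries. The means were 279 ± 8.77, 284 ± 19.9 and 314 ± 13.7 FPKM (SD, n = 3 each). By limma, the log2 fold change was 0.17 in CPIP+EA vs. Sham (SE 0.072, unadjusted p = 0.0430 and adjusted p = 0.389 by limma), 0.14 in CPIP+EA vs. CPIP and 0.026 in CPIP vs. Sham. Over the 21 alternative fits the value in CPIP+EA vs. Sham ranged from 0.084 to 0.19, and over those without 1 library from 0.13 to 0.19.

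Pfkfb4 and Pfkfb3 encode bifunctional enzymes that set the level of fructose-2,6-bisphosphate, an activator of glycolysis. Pfkfb4 (gene ID 54283) measured 7.05, 7.31 and 7.04 FPKM in Sham, 7.08, 8.05 and 8.18 FPKM in CPIP and 8.52, 9.03 and 8.20 FPKM in CPIP+EA. The CPIP+EA libraries were above all 6 others, although CPIP+EA replicate 3 and CPIP replicate 3 nearly met. The means were 7.13 ± 0.153, 7.77 ± 0.601 and 8.58 ± 0.419 FPKM (SD, n = 3 each). The log2 fold change was 0.25 in CPIP+EA vs. Sham (SE 0.079, unadjusted p = 0.0112 and adjusted p = 0.227 by limma), 0.14 in CPIP+EA vs. CPIP (limma adjusted p = 0.996) and 0.11 in CPIP vs. Sham. A second row, LOC100911725, stands for a Pfkfb4-like copy that could share reads with Pfkfb4. It was listed at 0.41 FPKM in Sham replicate 3, 0.68 FPKM in CPIP+EA replicate 1 and 0 in the other 7 libraries. With both rows summed, Pfkfb4 gave 0.26 in CPIP+EA vs. Sham (limma adjusted p = 0.226).

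Pfkfb3 (gene ID 117276) did not separate the groups. It measured 26.64, 23.63 and 25.13 FPKM in Sham, 26.86, 26.04 and 27.57 FPKM in CPIP and 29.49, 26.39 and 23.76 FPKM in CPIP+EA. The CPIP+EA libraries held the highest value and nearly the lowest. The log2 fold changes were 0.093, -0.020 and 0.074 (SE 0.082 each).

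Bnip3, a mitochondrial outer membrane protein that marks mitochondria for removal, was the second most abundant of the 10 genes and changed little. Bnip3 (gene ID 84480) measured 196.99, 205.26 and 219.05 FPKM in Sham, 197.40, 187.52 and 210.88 FPKM in CPIP and 196.35, 200.49 and 200.00 FPKM in CPIP+EA. All groups overlapped. The log2 fold changes were -0.061, 0.0041 and -0.056 (SE 0.066 each), and the interval of CPIP vs. Sham ran from -0.21 to 0.089.

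The wider HIF pathway was read from 6 lists that together named 89 genes, the 10 genes included, of which 88 were in the table and 87 passed the filter. Erythropoietin (Epo), the classic HIF target of the kidney, was at most 0.04 FPKM in any library and was left out by the filter. No pathway gene was a DEG in any of the 3 comparisons, beside 0.355%, 0% and 0.483% of all genes tested. At an adjusted p under 0.05, limma called Hif1a alone in CPIP vs. Sham, 0 genes in CPIP+EA vs. CPIP, and Hif1a and Pgk1 in CPIP+EA vs. Sham. These were 1, 0 and 2 of 87 genes, beside 0.71%, 0% and 1.31% of all genes tested. At an unadjusted p under 0.05 the counts were 9, 4 and 17 of 87, beside 8.66%, 4.29% and 12.2% of all genes tested. Libraries did not overlap for 14, 10 and 21 of 87 genes, beside 15.9%, 8.23% and 16.2% of all genes. Without CPIP+EA replicate 3, the library with the most marrow and erythroid markers, they did not overlap for 28 of 87 in CPIP+EA vs. CPIP and 35 of 87 in CPIP+EA vs. Sham, beside 22.9% and 28.9% of all genes, since 2 libraries overlap less often than 3.

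Pgk1, a glycolytic kinase and a textbook HIF target, was the pathway gene with the smallest adjusted p, in CPIP+EA vs. Sham. It measured 175.76, 172.04 and 172.99 FPKM in Sham, 225.23, 202.43 and 236.00 FPKM in CPIP and 256.48, 267.05 and 240.98 FPKM in CPIP+EA. The 3 groups did not overlap at all and stood in the order Sham, CPIP, CPIP+EA. The sums of the injured neuron and satellite glia markers were also lowest in Sham, with overlapping ranges in CPIP and CPIP+EA, and their part in the levels of Pgk1 and of the other glycolysis genes was not tested. By limma, the log2 fold change was 0.35 in CPIP vs. Sham (SE 0.072, limma adjusted p = 0.0833), 0.21 in CPIP+EA vs. CPIP (limma adjusted p = 0.996) and 0.55 in CPIP+EA vs. Sham (SE 0.072, limma adjusted p = 0.00694). The last is a 1.47-fold ratio of means, just under the fold limit of a DEG, and its adjusted p stayed under 0.05 in all 21 alternative fits (0.00614 to 0.0423). Without CPIP+EA replicate 3 the log2 fold change was 0.59 (limma adjusted p = 0.00975), which counts as a DEG.

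The glucose uptake, glycolysis and lactate list, which holds Slc2a1, Ldha, Pfkfb3 and Pfkfb4, had log2 fold changes above 0 for 20 of 26 genes in CPIP vs. Sham, 22 of 26 in CPIP+EA vs. CPIP and 20 of 26 in CPIP+EA vs. Sham. Over all genes tested the shares above 0 were 47.9%, 54% and 50.4%. The list's medians were 0.093, 0.085 and 0.16, and libraries did not overlap for 5, 3 and 10 of 26 genes, beside 15.9%, 8.23% and 16.2% of all genes tested. Of these, Pgk1 alone passed an adjusted p of 0.05, in CPIP+EA vs. Sham. Without CPIP+EA replicate 3 the counts above 0 were 23 of 26 against CPIP and 24 of 26 against Sham, with medians of 0.13 and 0.18, and libraries did not overlap for 10 and 15 of 26 genes, beside 22.9% and 28.9% of all genes. These list counts were not repeated without any other library. Single genes, picked here after their values were seen, moved both ways in CPIP+EA vs. Sham without 1 library. Gpi ranged from 0.12 to 0.29, highest without CPIP+EA replicate 3, and Slc16a3 from 0.14 to 0.41, lowest without it. Next to Pgk1, the rule for named genes gave Eno1, an enolase, with 0.16 in CPIP+EA vs. CPIP and 0.43 in CPIP+EA vs. Sham (limma adjusted p = 0.0619), and Pdk1, the kinase that closes the entry of pyruvate into the citric acid cycle, with 0.17 in CPIP vs. Sham (limma adjusted p = 0.526).

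The HIF subunit and cofactor list (Hif1a, Epas1, Hif3a, Arnt, Arnt2 and the cofactors Ep300, Crebbp and Cited2) had log2 fold changes above 0 for 3, 0 and 3 of 8 genes, with medians of -0.027, -0.094 and -0.11. Without CPIP+EA replicate 3, 1 of 8 was above 0 in CPIP+EA vs. CPIP. Cited2, which competes with HIF for its coactivators, had 0.30 in CPIP vs. Sham (limma adjusted p = 0.658), or 0.16 without CPIP replicate 2, and the coactivator Crebbp had -0.15 in CPIP+EA vs. CPIP and -0.26 in CPIP+EA vs. Sham (limma adjusted p = 0.302). In the oxygen sensing and degradation list 6, 6 and 5 of 10 genes were above 0. Hif1an, the asparagine hydroxylase that restrains HIF, had -0.23 in CPIP vs. Sham (limma adjusted p = 0.544), Vhl had 0.14 in the same comparison, and Tceb2 (elongin B) had 0.21 in CPIP+EA vs. Sham.

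The vascular ligand and receptor list, with Vegfa and Adm, was above 0 for 5, 7 and 5 of 19 genes, with medians of -0.079, -0.016 and -0.12. Without CPIP+EA replicate 3, the counts were 8 of 19 against CPIP and 4 of 19 against Sham, with medians of -0.092 and -0.18. Pericyte and smooth muscle markers summed to 80.8 to 103 FPKM in Sham, 65.7 to 99.2 FPKM in CPIP and 67.6, 73.4 and 91.0 FPKM in CPIP+EA replicates 1, 2 and 3. Fibroblast markers summed to 795 to 1078 FPKM in Sham, 679 to 890 FPKM in CPIP and 533, 445 and 912 FPKM in those replicates. The part of these cells in the list was not tested. Kdr, the main signaling receptor of Vegfa, had -0.24 in CPIP+EA vs. CPIP (-0.13 without CPIP replicate 2) and -0.22 in CPIP+EA vs. Sham (limma adjusted p = 0.515), Pgf had -0.31 in CPIP+EA vs. CPIP, Apln had -0.33 in CPIP+EA vs. Sham and Nrp1 had 0.11 in CPIP vs. Sham. None of these 4 genes passed an adjusted p of 0.05. In the BNIP3 family and mitophagy list 2, 3 and 4 of 6 genes were above 0. The libraries of all 6 overlapped in every comparison, where they did not overlap for 15.9%, 8.23% and 16.2% of all genes.

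Among the 18 other HIF target genes, 9, 10 and 12 were above 0. Bhlhe40, a transcriptional repressor, had -0.47 in CPIP vs. Sham (limma adjusted p = 0.349) and Ankrd37 had 0.46 (limma adjusted p = 0.338). In CPIP+EA vs. CPIP, the collagen-modifying hydroxylase Plod2 had -0.17 and the histone demethylase Kdm3a had 0.14. In CPIP+EA vs. Sham, Stc2 had -0.57 and the carbonic anhydrase Car12 had 0.38 (limma adjusted p = 0.295 and 0.335), both at levels under 1 FPKM. Well-known targets of the pathway thus lay on both sides of 0.

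**Figure D4:**
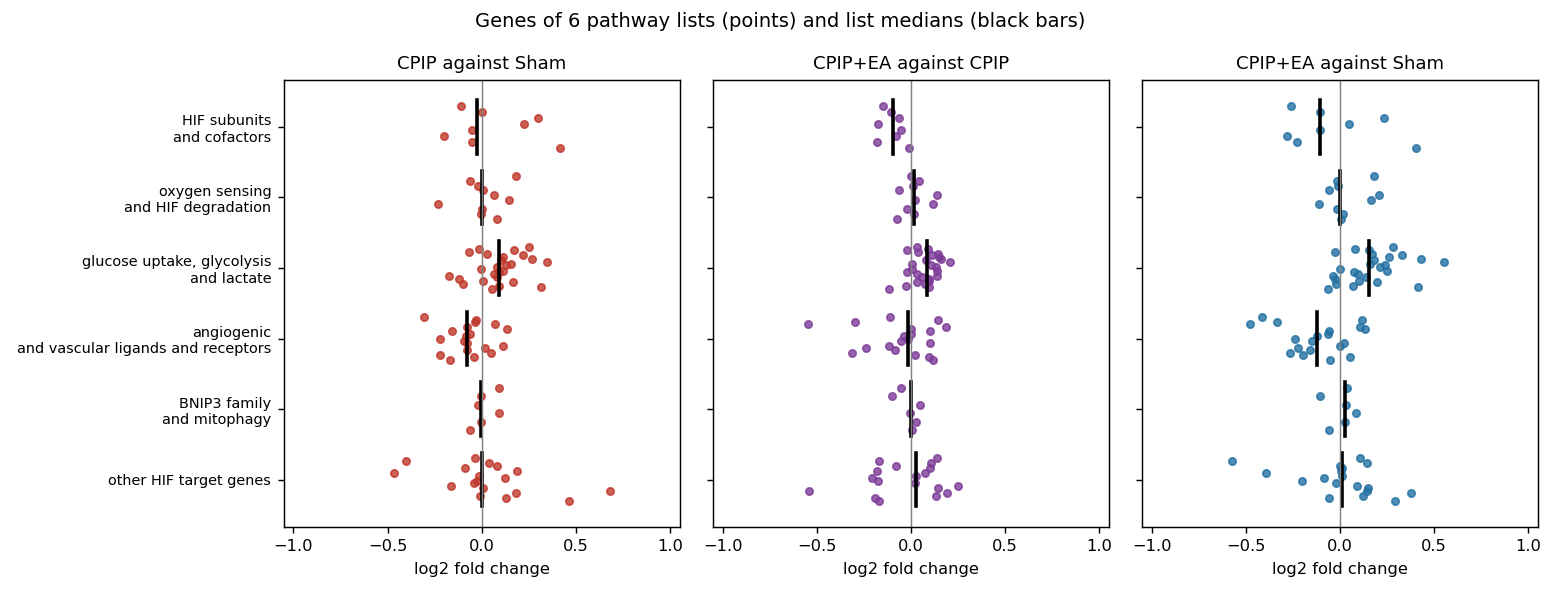
Log2 fold changes (horizontal axes) of the 87 tested genes of the 6 pathway lists in the 3 comparisons, 1 point a gene, with a black bar at each list's median. The glycolysis list lies mostly to the right of 0, with medians of 0.093, 0.085 and 0.16, and the vascular list mostly to the left, with medians of -0.079, -0.016 and -0.12.

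The paralogs of the 10 genes showed which family member had the most abundant mRNA in the ganglion, on the FPKM scale. Hif3a was at 0.24 to 0.88 FPKM, far under Hif1a and Epas1. Among the prolyl hydroxylases Egln2, at 56.14 to 63.98 FPKM, was above Egln1, at 9.61 to 13.34 FPKM, and Egln3 was lowest. Ldhb, at 214.86 to 258.25 FPKM, was below Ldha, and Bnip3l, at 79.49 to 88.64 FPKM, was below Bnip3. Slc2a3, the neuronal glucose transporter, was at 4.20 to 10.57 FPKM. Pfkfb2 was at 9.63 to 10.90 FPKM, near Pfkfb4, and Pfkfb1 at most 0.47 FPKM. Vegfb, at 25.83 to 34.57 FPKM, overlapped the range of Vegfa, and Vegfc was at 0.77 to 1.48 FPKM. None of these 10 paralogs passed an adjusted p of 0.05 in any comparison, where 0.71%, 0% and 1.31% of all genes tested did.

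Receptors for both secreted factors were present. For Vegfa, Flt1 was at 4.63 to 6.77 FPKM, Kdr at 2.71 to 4.20 FPKM and the coreceptor Nrp1 at 8.79 to 11.02 FPKM. For Adm, the receptor Calcrl was at 4.74 to 7.09 FPKM and its partners Ramp2 and Ramp3 at 40.30 to 60.28 and 11.64 to 18.85 FPKM. Ramp2 was thus the most abundant of these 6 genes in each library.

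For each gene, the gene with the most similar course over the 9 libraries was sought among 13913 genes with a mean of at least 1 FPKM, by Pearson r on the log2 scale, as a description over libraries that share 3 groups. For Hif1a it was Ucn, which encodes the stress peptide urocortin (r = 0.991). Ucn was listed at 0.11, 0.11 and 0 FPKM in Sham, 1.54, 1.89 and 2.55 FPKM in CPIP and 2.84, 1.54 and 2.22 FPKM in CPIP+EA. Its mean of 1.42 FPKM thus passed the filter only through the CPIP and CPIP+EA libraries. The r largely restates that both genes separate these libraries from Sham. For Vegfa it was Kcnj10, a potassium channel that is also in the satellite glia marker list (r = 0.958). Kcnj10 measured 35.19, 32.89 and 36.22 FPKM in Sham, 28.58, 29.85 and 29.83 FPKM in CPIP and 39.33, 34.44 and 27.58 FPKM in CPIP+EA, with the same low CPIP+EA replicate 3 as Vegfa. For Epas1 it was Celsr2 (r = 0.961), at 11.08 to 12.56 FPKM in CPIP+EA and 14.15 to 17.06 FPKM in the other libraries. The best matches of the other genes were Rabggta for Adm (r = 0.937), Atg4c for Egln3 (0.968), Lpp for Bnip3 (0.950), Llph for Slc2a1 (0.959), Pls3 for Ldha (0.976), Bcam for Pfkfb3 (0.975) and Ahsa2 for Pfkfb4 (0.954). A highest value among so many genes and so few libraries is large for any gene, and the 10 genes had 10 different matches, none of them a member of the 6 lists.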

How the data were processed

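Single-end mRNA reads of 9 rat DRG libraries were filtered by the authors with SOAPnuke to remove adaptors, reads rich in unknown bases and reads of low quality. The authors deposited FPKM values per gene and library, rounded to 2 decimals. The aligner, the genome build and the annotation are not given in the sources used here. FPKM keeps no count of reads, so the depth behind a value is unknown from the table, and no count test was run. The table also held 9 columns of the authors' own comparisons (log2 ratios, P-values and Q-values), which were not used. Samples were grouped by their labels, with Con called Sham. The study's methods name 3 rats a group for the libraries, which matches 3 libraries a group, but no label ties a library to a rat, and p-values measure the spread between these libraries.

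The test was limma 3.58.1 (R 4.3.3) on log2 of FPKM plus 0.5, with a trended eBayes prior. The 9 libraries shared 1 fit without covariates, over the 17187 genes whose mean FPKM reached 0.1. Two-sided p-values were adjusted over all of them by the Benjamini-Hochberg method. As in the study, a DEG needed an adjusted p below 0.01 together with a 1.5-fold change in either direction. The fit was tested on simulated data. Named were the 10 genes, the Pfkfb4-like copy, their paralogs, the receptors of Vegfa and Adm, and in each comparison up to 2 genes of each pathway list that changed most, if the libraries of the groups stood apart. The nearest gene by Pearson r was named for each of the 10. The genes and the lists were chosen with earlier results of these data known. Older symbols were matched through RefSeq gene IDs. Of the 89 listed genes, Adm2 was not analysed here. Promoter windows came from RefSeq on GRCr8, and the annotation behind the FPKM values may differ from it. Alternatives changed the pseudocount (0.1 and 1), the filter (none, or a mean FPKM of 1), the scaling (quantile, TPM, median centring), the variance model, the groups in the fit, the replicate block and the threshold, summed Pfkfb4 with its copy, and left out each library in turn. After the data were seen, the list counts were repeated without CPIP+EA replicate 3. Tables and figures were made with Python 3.11.15, pandas 2.3.3, scipy 1.17.1 and matplotlib 3.10.9.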

Additional observations from a re-analysis of the deposited data

How the results depend on the processing

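With limma, the count of DEGs among the 10 genes stayed at 0 in every comparison under every alternative that kept the threshold. At an adjusted p under 0.05 with no limit on the fold change it was 1 in CPIP vs. Sham and 1 in CPIP+EA vs. Sham, and the pathway counts were 1 and 2. Leaving out 1 library at a time, the count of pathway DEGs in CPIP+EA vs. Sham, at the study's threshold, ranged from 0 to 1 (Pgk1, without CPIP+EA replicate 3), and the count at an adjusted p under 0.05 from 1 to 2. The genes behind that count were not always the same. Without CPIP+EA replicate 1 it was 2 with 0 of the 10 genes among them, so a pathway gene other than Hif1a stood beside Pgk1. The adjusted p of Hif1a was above 0.05 on the TPM scale (0.0974 in CPIP vs. Sham, 0.0905 in CPIP+EA vs. Sham), without the trend (0.0767 and 0.0578), with only the 2 groups compared in the fit (0.0507 and 0.0747) and with the replicate block; the cause was not tested. Replicate numbers are shared by the groups, but nothing in the labels says that a number marks a shared cage or day. The 9 correlations between the deviations of same-numbered libraries ran from -0.24 to 0.30. Those between differently numbered libraries ran from -0.22 to 0.28. With so few libraries, these ranges do not show whether some libraries share a batch. With the replicate block, the log2 fold changes of Hif1a remained 0.41 and 0.40 with adjusted p of 0.132 and 0.0912, 0 of the 10 genes were under an adjusted p of 0.05, and the DEGs over all genes went from 61 to 26 in CPIP vs. Sham and from 83 to 42 in CPIP+EA vs. Sham.

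Small log2 fold changes changed sign with the scaling: Hif1a in CPIP+EA vs. CPIP to 0.0032 with median centring, Adm in CPIP+EA vs. Sham to -0.0067 on the TPM scale, Egln3 in CPIP vs. Sham to -0.012, -0.0071 and -0.0040 with quantile, TPM and median scaling, Bnip3 in CPIP+EA vs. CPIP to -0.024 and -0.015 with quantile and TPM scaling, and Ldha in CPIP vs. Sham to -0.031 with quantile scaling. Leaving out 1 library at a time turned the sign of others, with ranges in CPIP vs. Sham, Adm from -0.18 to 0.078, Egln3 from -0.025 to 0.025, Slc2a1 from -0.048 to 0.16 and Ldha from -0.028 to 0.071; in CPIP+EA vs. CPIP, Hif1a from -0.057 to 0.042, Adm from -0.098 to 0.21, Egln3 from -0.050 to 0.042, Bnip3 from -0.036 to 0.048 and Pfkfb3 from -0.097 to 0.056; in CPIP+EA vs. Sham, Vegfa from -0.10 to 0.028, Adm from -0.18 to 0.13, Egln3 from -0.048 to 0.044, Slc2a1 from -0.12 to 0.022 and Pfkfb3 from -0.0035 to 0.15. Others kept their sign but moved by over 1.5 times: in CPIP vs. Sham, Epas1 from -0.081 to -0.00052, Bnip3 from -0.10 to -0.020, Pfkfb3 from 0.051 to 0.14 and Pfkfb4 from 0.077 to 0.17; in CPIP+EA vs. CPIP, Vegfa from 0.065 to 0.20, Slc2a1 from -0.22 to -0.018 and Pfkfb4 from 0.075 to 0.17; in CPIP+EA vs. Sham, Bnip3 from -0.092 to -0.015. Of the 583 log2 fold changes computed under other settings, 567 kept their direction and their side of an adjusted p of 0.05, as did 441 of the 477 without 1 library. Of the 23 values of named pathway genes, 7 moved by over 1.5 times without 1 library, none of them under an adjusted p of 0.05. Beside Cited2 and Kdr these were Eno1 in CPIP+EA vs. CPIP (0.096 without CPIP replicate 1), Nrp1 (0.071 without Sham replicate 2) and Ankrd37 (0.30 without Sham replicate 1) in CPIP vs. Sham, and Pgf (-0.20 without CPIP+EA replicate 1) and Kdm3a (0.088 without CPIP+EA replicate 3) in CPIP+EA vs. CPIP. With 3 libraries a group and no read counts, the depth behind the low genes Adm, Egln3 and Ucn is unknown.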

Other observations

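The balance of the 2 HIF alpha subunits at the mRNA level was computed after their values had been seen. The ratio of Hif1a to Epas1 FPKM was 0.435, 0.438 and 0.376 in the Sham libraries, 0.522, 0.562 and 0.652 in the CPIP libraries and 0.670, 0.632 and 0.647 in the CPIP+EA libraries. All 6 libraries of rats with CPIP were above all 3 Sham libraries. The means were 0.416 ± 0.0351, 0.579 ± 0.0668 and 0.650 ± 0.0194 (SD, n = 3 each). The ratio restates the separation of Hif1a and Epas1 that prompted it, and no test is given for it.

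Several further enzymes of glycolysis, chosen here after their values were seen, had CPIP+EA libraries above all Sham libraries. Pkm had a log2 fold change of 0.33 (limma unadjusted p = 0.0121), Eno2 0.26 (0.125), Tpi1 0.24 (0.0181) and Pgam1 0.18 (0.0533). The muscle phosphofructokinase Pfkm had -0.12 in CPIP vs. Sham (0.0477), with CPIP libraries below all Sham libraries. None of these 5 genes was under an adjusted p of 0.05.

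Ddit4 (REDD1), a stress gene that low oxygen induces, was the most variable of the abundant pathway genes and was also picked after its values were seen. It measured 27.20, 51.02 and 42.25 FPKM in Sham, 71.32, 71.90 and 47.95 FPKM in CPIP and 49.24, 41.90 and 38.23 FPKM in CPIP+EA. The CPIP libraries overlapped the Sham and the CPIP+EA libraries, with a log2 fold change of 0.68 in CPIP vs. Sham (limma adjusted p = 0.391) and -0.54 in CPIP+EA vs. CPIP (limma adjusted p = 0.996). Leaving out 1 library at a time, the first ranged from 0.43, without Sham replicate 1, to 0.88 and the second from -0.73 to -0.44.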
